A study of Drosophila melanogaster with 8 samples.

Results

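Sharp promoters are promoters at which RNA polymerase II starts most transcripts at a single base. Cap analysis of gene expression (CAGE) captures the capped 5′ end of RNAs and sequences a short tag from it, so that the position of each tag marks a transcription start site. In flies, sharp start sites are known from promoters with core elements such as the TATA box or the Initiator, which hold the transcription machinery at a fixed distance, whereas dispersed start sites are common at promoters of housekeeping genes. The RNA exosome is the complex that degrades many nuclear RNAs from their 3′ end, among them short transcripts that start upstream of promoters on the opposite strand.

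Here, sharp promoters were 595 tag clusters (TCs) on chromosome arm 3R. To build TCs, tag positions seen 2 or more times in any library were joined on each strand where gaps did not exceed 20 bp. Positions below 0.1 of the highest one (the summit) were then removed and the rest joined anew, which left 688364 TCs across the genome. Of these, 1764 lay on 3R from position 400000 on and had a mean of 10 TPM (tags scaled to the library total) or more over the 8 libraries. They are called strong TCs below. A strong TC was called sharp where its kept positions spanned 10 bp or less and its summit held 50% or more of its pooled tags. Sharp TCs made up 33.7% of strong TCs, 1114 strong TCs were wide (more than 10 bp), and 55 were narrow but had no dominant position. Members were thus selected on tag level, width and summit share, and these values are given as descriptions, whereas the difference between groups, the opposite strand and the tags downstream were not used in the choice. The pooled share gives more weight to the group with more tags in a TC.

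All libraries came from S2 cells, a cultured Drosophila line of embryonic origin, and total RNA was extracted after cells had received double-stranded RNA on 2 occasions to trigger RNA interference. By the labels, 1 group was exosome knockdown (4 libraries), for which the study describes double-stranded RNA against both catalytic exosome subunits, Dis3 and Rrp6. Again by the labels, the other group was control (4 libraries), for which the study describes double-stranded RNA against GFP, a protein that flies lack. The study's text speaks of biological replicates, but the labels do not say that libraries of a group came from separate cultures, and p-values measure only the spread between these libraries. Libraries held between 33565925 and 46388382 tags. The names of the deposited files carry the opposite group word in each case. The columns of the study's expression table, each of which matched a single library in whole multiples of 1 tag (within 0.02 tags), also run against the labels. Libraries are named here by their labels throughout, and every direction given for the labelled-control libraries is, by that table and those names, a direction for exosome-depleted cells. The levels of Dis3 and Rrp6 and the markers of S2 cells were not analysed here, since no gene annotation of the genome build used (dm3) was at hand. For the same reason TCs are named by their dm3 position and strand, and neither genes nor sequences are given.

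Sharp TCs spanned a wide range of levels. Their mean level ran from 10.0 to 5392 TPM, with a median of 36.4 TPM, beside 34.1 TPM for wide and 34.1 TPM for narrow TCs without a dominant position. Most of the strongest start sites of the arm were sharp. A mean of 500 TPM or more was reached by 39 sharp, 18 wide and 5 other narrow TCs, and 1000 TPM or more by 14, 4 and 2. Sharp TCs had a median width of 2 bp, and 263 of the 595 kept a single position. Another 218 kept 2 positions, 90 kept 3, 18 kept 4 and 6 kept 5 or 6. The summit held a median of 87.0% of a sharp TC's tags, with a range from 50.1% to 100%. Wide TCs had a median width of 36 bp and a median summit share of 28.6%.

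The limits of the rule cut through a continuum. The weakest members had means of 10.02 and 10.03 TPM, while the closest TCs left out had 9.95 and 9.94 TPM. The lowest summit shares among members were 50.1% and 50.2%, and narrow TCs just under the limit had 49.96% and 49.86%. Another 125 strong TCs had 50% or more of their tags at the summit but were wider than 10 bp, such as chr3R:26276117-26276127 on the minus strand (11 bp, 69.4%). Trimming also hides minor positions. When all tags within 25 bp of the summit were counted, trimmed ones included, the summit held a median of 70.2% (range 5.77% to 99.7%), and 116 members fell below 50%. Members with a single kept position had a median of 85.1% by this measure and those with several positions 61.0%.

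**Figure D1:**
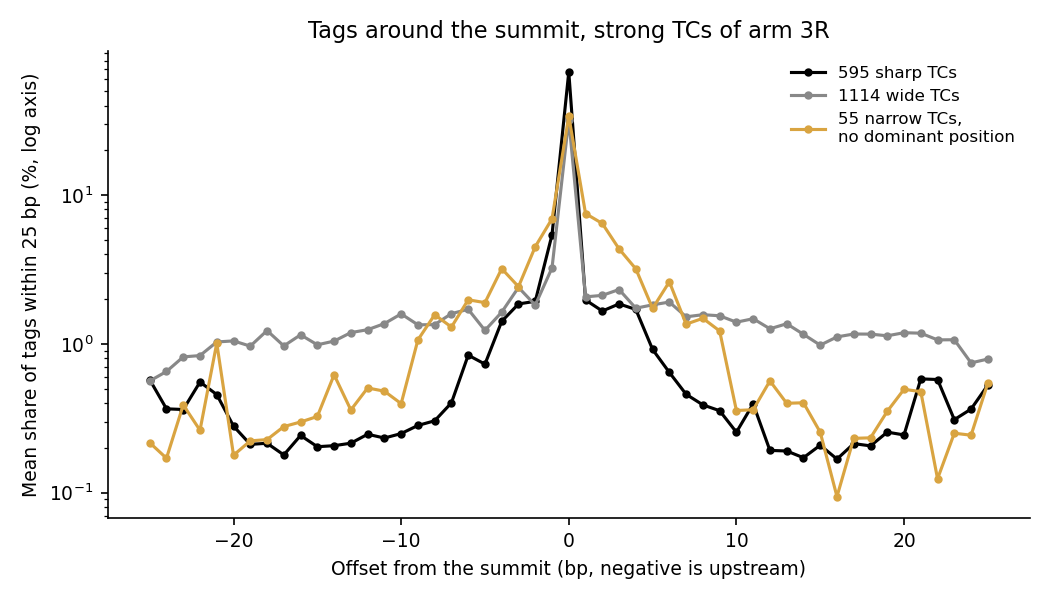
Mean share of tags (percent of all tags within 25 bp, log axis) at each offset from the summit in bp, for 595 sharp, 1114 wide and 55 narrow TCs without a dominant position, with tags pooled over the 8 libraries. Sharp TCs had 67.3% at the summit, 5.40% at the base before it and 1.97% at the base after it.

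Around the summit, tags fell off unevenly on the upstream and downstream sides, as the plot of tag shares by offset shows. The mean share was 67.3% at the summit, 5.40% at the base just upstream and 1.97% at the base just downstream. At wide TCs the summit held 32.2% and the upstream base 3.24%. The second highest position within 25 bp lay upstream at 376 members and downstream at 219, and at 203 members (34.1%) it was the base just upstream. It held a median of 10.9% of the tags, and it lay within 5 bp of the summit at 472 members (79.3%). The sample descriptions mention extra bases next to the cap that reverse transcription adds and that have to be trimmed from reads. A tag with an extra base left on would map 1 bp upstream of its start site, and the part of such tags in the share at this base was not tested.

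The highest position of a sharp TC was mostly the same in all libraries, in part by construction. The pooled summit was the highest position of the TC in all 8 libraries at 562 sharp TCs (94.5%), compared with 599 wide TCs (53.8%) and 22 of the 55 narrow TCs without a dominant position (40.0%). The 263 members with a single kept position are 1 bp wide, so that they pass in every library by construction. Since members were also selected for a dominant summit in the pooled tags, these shares are a description.

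Members were spread along the arm on both strands, 303 on the plus and 292 on the minus strand. Over the 26 full Mb of the arm, between 7 and 41 members lay in each Mb, with a median of 21.5. The median distance from a member to the next one on either strand was 15351 bp, but 46 of the 594 distances were under 100 bp and 99 under 1000 bp, with a minimum of 21 bp. Sharp TCs were often side by side with other start sites. Another TC of 1 TPM or more lay within 100 bp on the same strand at 193 members (32.4%), and another strong TC at 146 (24.5%), beside 26.4% and 10.1% of wide TCs. The merging distance of 20 bp fixes part of this, as start sites farther apart than that count as separate TCs. Neighbours of this kind share a promoter region and are not independent of each other.

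The strongest member was chr3R:11068412-11068416 on the plus strand, with its summit at 11068414. Its pooled tags within 25 bp were at the summit (61.6%), 2 bp downstream (19.4%) and 2 bp upstream (7.32%). The labelled-control libraries held 6410.0, 6635, 6578 and 5515 TPM and the labelled-knockdown libraries 5038, 4479, 4108 and 4371 TPM. The groups did not overlap, but the change did not pass the test of edgeR (log2 fold change of the labelled-control over the labelled-knockdown libraries 0.46 ± 0.19 SE, adjusted p = 0.063, quasi-likelihood test with Benjamini-Hochberg adjustment over 23325 TCs). That value was near the threshold, and over the alternatives the adjusted p ranged from 0.0048 with DESeq2 to 0.147 without labelled-knockdown library 3.

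The second strongest member, chr3R:26213577-26213580 on the minus strand, likewise started mostly at 1 base (64.9% of tags within 25 bp), with a second position 3 bp upstream (25.3%). It had 3835, 5347, 4394 and 4133 TPM in the labelled-control libraries and 3256, 3789, 3789.6 and 3387 TPM in the labelled-knockdown libraries. The groups again did not overlap, and the log2 fold change of 0.29 ± 0.20 SE did not pass (edgeR adjusted p = 0.256).

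The third, chr3R:2912324 on the plus strand, kept a single position, which held 83.2% of all tags within 25 bp. It was the member with the highest level among those with a single position, and it was lower in every labelled-control library than in any labelled-knockdown library. The former held 485, 643, 1486 and 1713 TPM, whereas the latter held 4949, 5658, 2466 and 2694 TPM. Libraries of a group lay far apart, and the level fell by 1.92 on the log2 scale (SE 0.46, edgeR adjusted p = 0.0057). In RNA from whole cultures, a lower level per cell cannot be told apart from fewer cells that use the start site.

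Of the other 2 members among the 5 strongest, chr3R:4646397-4646399 on the minus strand had 1801, 1843, 1445 and 1798 TPM in the labelled-control libraries and 3481, 3078, 2377 and 3178 TPM in the labelled-knockdown libraries. This was a fall of 0.84 on the log2 scale without overlap (SE 0.19, edgeR adjusted p = 0.0047). The TC at chr3R:26034659-26034665 on the minus strand, whose summit held 48.1% of tags within 25 bp with a further 26.9% at the base before it, had 1391, 2004, 1074 and 2247 TPM against 2187, 4821, 2158 and 1945 TPM. The groups overlapped, a single labelled-knockdown library stood far above the rest, and the change did not pass (log2 fold change -0.78 ± 0.38 SE, edgeR adjusted p = 0.113).

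To ask how sharp start sites respond to exosome knockdown, all 23325 TCs of the genome with a mean of 1 TPM or more were fitted together with edgeR, and every member passed this filter. Members changed in both directions, 326 in all (54.8%), where 52.7% of all TCs fitted were called. In the labelled-control libraries, 147 members (24.7%) were higher and 179 (30.1%) lower at an adjusted p of 0.05, beside 29.5% and 23.2% of all TCs fitted, and 269 members were not called. The median log2 fold change was -0.15 over members, -0.03 over all TCs fitted and -0.26 over the other 1169 strong TCs of 3R. Among wide TCs, 183 (16.4%) were higher and 423 (38.0%) lower.

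**Figure D2:**
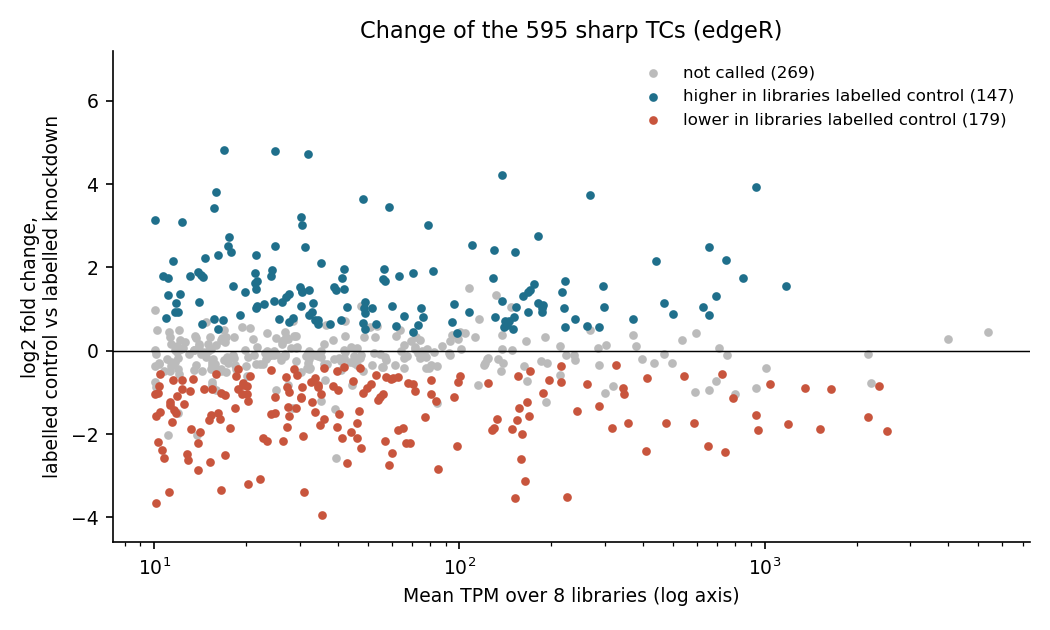
The log2 fold change of each of the 595 sharp TCs (labelled-control over labelled-knockdown libraries, edgeR) against its mean TPM over the 8 libraries (log axis), with 147 called higher in blue, 179 called lower in red and 269 not called in grey. Changes in both directions occur over the range of levels, and the 2 strongest members were not called.

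A change of more than 1 on the log2 scale was called at 216 members, 16.97% of all members upwards and 19.3% downwards, beside 24.8% and 12.7% of all TCs fitted and 8.98% and 11.8% of wide TCs. One of more than 2 was called at 32 members upwards (5.38%) and 39 downwards (6.55%), beside 16.4% and 3.24% of all TCs fitted and 3.77% and 1.97% of wide TCs. The TCs fitted reach down to 1 TPM, and members to 10 TPM. The 2 groups of libraries did not overlap at 129 members that were higher (21.7%) and 136 that were lower (22.9%), beside 27.8% and 20.5% of all TCs fitted. Of the 263 single-position members, 69 were called higher (26.2%) and 80 lower (30.4%). Of the 332 members with several positions, 78 were called higher (23.5%) and 99 lower (29.8%). These shares lie near those of all members, beside 29.5% and 23.2% of all TCs fitted. Among the 402 members with no other TC of 1 TPM or more within 100 bp on their strand, 112 were higher (27.9%) and 128 lower (31.8%).

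Sharp TCs had a larger spread between libraries of a group than wide ones, which is given as a description. The SD of log2 TPM within a group had a median of 0.319 over members in the labelled-control libraries and 0.342 in the labelled-knockdown libraries. For wide TCs it was 0.202 and 0.221. The levels of both classes were alike (medians of 36.4 and 34.1 TPM), and the part of the number of positions in this spread was not tested.

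The member with the largest rise was chr3R:4882915 on the minus strand, a single position with 90.2% of the tags within 25 bp. It had 39.5, 31.6, 34.5 and 24.9 TPM in the labelled-control libraries and 2.25, 0.775, 0.676 and 0.820 TPM in the labelled-knockdown libraries, a log2 fold change of 4.82 ± 0.40 SE (edgeR adjusted p = 1e-05). One labelled-knockdown library was higher than the other 3, but still far below every labelled-control library. Its opposite strand upstream was nearly silent in both groups, with 0.0180 ± 0.0221 and 0.0458 ± 0.0255 TPM (SD, n = 4).

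The next members in this order rose nearly as much. At chr3R:6979581-6979587 on the minus strand the labelled-control libraries had 51.8, 41.5, 63.5 and 34.9 TPM against 2.69, 1.67, 0.364 and 2.05 TPM (log2 fold change 4.79 ± 0.50 SE, edgeR adjusted p = 3.2e-05). At chr3R:12058693-12058696 on the plus strand they had 65.5, 62.2, 46.2 and 71.3 TPM against 3.78, 1.94, 2.03 and 1.39 TPM (log2 fold change 4.72 ± 0.32 SE, edgeR adjusted p = 4.8e-06). Both were thus at a few TPM or less in one group and far higher in every library of the other. Like the member with the largest rise, they reached a mean of 10 TPM only through the labelled-control libraries.

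Stronger members with a large rise were chr3R:12164259-12164260 on the minus strand and chr3R:5919485 on the plus strand. The first had 294, 265, 198 and 289 TPM against 12.4, 3.16, 3.72 and 37.9 TPM (log2 fold change 4.22 ± 0.72 SE, edgeR adjusted p = 0.00078), with a wide spread in the labelled-knockdown libraries. The second, which kept a single position with 89.8% of the tags within 25 bp, had 1688, 1491, 1753 and 2089.5 TPM against 148, 89.7, 77.7 and 140.0 TPM, a mean ratio of 15.4 (log2 fold change 3.93 ± 0.24 SE, edgeR adjusted p = 3.9e-06). It was among the strongest start sites of the arm in one group and of moderate level in the other.

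**Figure D3:**
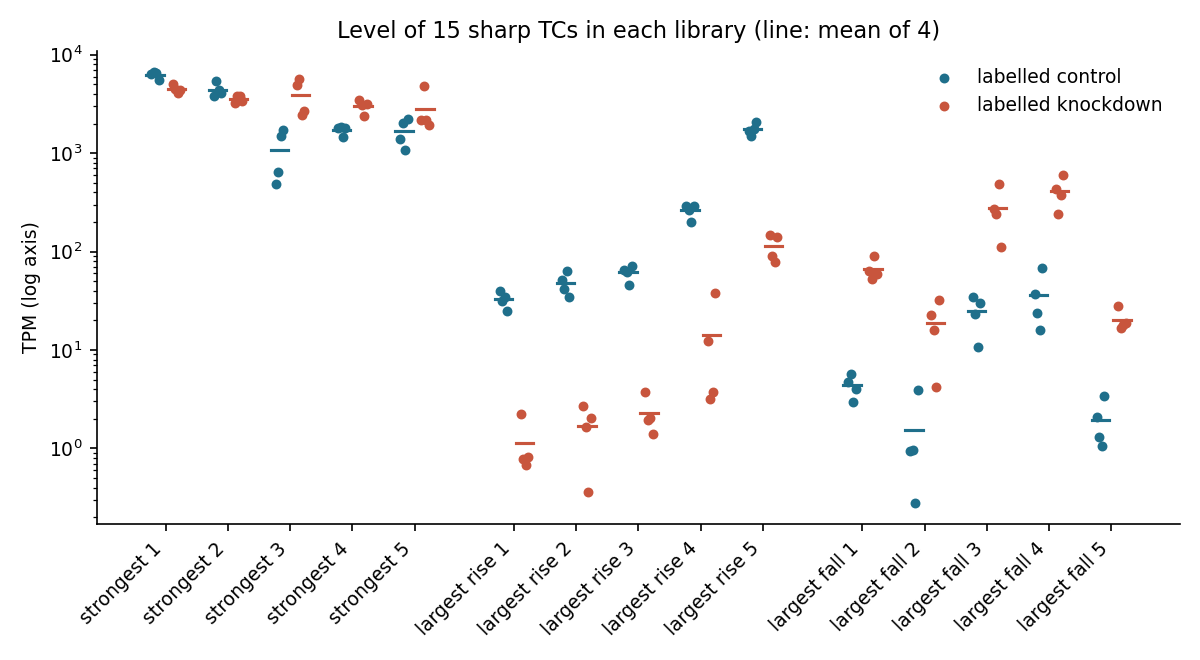
TPM (log axis) in each library of the 5 members with the highest mean level, the 5 with the largest rise and the 5 with the largest fall, each set ordered by that value, with the labelled-control libraries in blue, the labelled-knockdown libraries in red and lines at the mean of 4. The 10 members with the largest changes were taken from called members whose groups do not overlap, and among the strongest members the groups overlap at the fifth.

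The largest fall was at chr3R:14807175-14807177 on the plus strand, with 4.77, 5.75, 2.95 and 3.99 TPM in the labelled-control libraries and 63.1, 52.6, 90.3 and 59.3 TPM in the labelled-knockdown libraries, a mean ratio of 15.2 in favour of the latter. The level fell by 3.94 on the log2 scale (SE 0.27, edgeR adjusted p = 5e-06). This TC reached a mean of 10 TPM only through the labelled-knockdown libraries, and it was 1 of a cluster of start sites. Its summit held 31.3% of the tags within 25 bp, less than the 35.3% at a position 25 bp upstream that belongs to another TC.

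The member at chr3R:791171-791174 on the plus strand had 34.5, 23.1, 10.7 and 30.2 TPM against 272, 241, 491 and 111 TPM (edgeR log2 fold change -3.52 ± 0.49 SE, adjusted p = 0.00022). The single position at chr3R:6675549 on the plus strand had 36.6, 24.0, 15.8 and 68.3 TPM against 433, 241, 376 and 604 TPM (edgeR log2 fold change -3.52 ± 0.45 SE, adjusted p = 0.00012). Both were thus far stronger in one group. The other large falls were at weaker TCs on the plus strand, which reached a mean of 10 TPM only through the labelled-knockdown libraries. At chr3R:24964620-24964624 the level was 0.945, 0.972, 0.280 and 3.89 TPM against 22.9, 15.9, 4.24 and 32.1 TPM, and the highest library of one group came close to the lowest of the other (edgeR log2 fold change -3.64 ± 0.80 SE, adjusted p = 0.0035). At chr3R:19589596-19589598 it was 2.07, 1.31, 1.06 and 3.40 TPM against 27.9, 16.6, 18.1 and 18.6 TPM (edgeR log2 fold change -3.39 ± 0.37 SE, adjusted p = 4.5e-05).

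The next 2 single-position members by level were called lower. At chr3R:7392770 on the minus strand the labelled-control libraries had 458, 540.3, 739 and 479 TPM and the others 2171, 1976, 1565 and 1616 TPM (edgeR log2 fold change -1.76 ± 0.21 SE, adjusted p = 8.4e-05). At chr3R:5456515 on the minus strand they had 719, 838, 729 and 786 TPM against 1171, 1128, 1386 and 1570.5 TPM (edgeR log2 fold change -0.79 ± 0.16 SE, adjusted p = 0.0024). Groups did not overlap at either of them, and at both the summit held more than 80% of the tags within 25 bp (90.6% and 82.2%).

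As a whole, sharp TCs took a smaller share of the labelled-control libraries, with 7.87%, 8.33%, 7.71% and 8.19% of all tags, against 9.24%, 9.90%, 8.46% and 9.21% in the labelled-knockdown libraries. The means were 8.02% ± 0.285 and 9.20% ± 0.588 (SD, n = 4 each), with no overlap between groups (p = 0.0286 by a two-sided exact permutation test, the smallest p that 4 against 4 allows). Wide TCs differed likewise, with 7.69% ± 0.223 and 9.20% ± 0.439 (SD, n = 4, exact p = 0.0286). A single TC on another chromosome arm held 5.76% ± 0.709 of all tags in the labelled-control libraries and 0.738% ± 0.0755 in the others, and the arm as a whole held 22.8% ± 0.181 and 25.4% ± 0.329. Of the tags on 3R, members held 35.1% ± 0.983 and 36.2% ± 1.98, which did not differ beyond the spread between libraries (SD, n = 4, exact p = 0.40). Without the 10 strongest members, the share of all tags was 5.91% ± 0.0993 and 6.25% ± 0.321, and the groups overlapped (exact p = 0.143).

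To compare sharp with wide TCs, the median log2 TPM of wide TCs was subtracted from that of members in each library. The difference was 0.12 ± 0.06 in the labelled-control libraries and 0.000135 ± 0.145 in the others (SD, n = 4 each), and the groups overlapped (exact permutation test, p = 0.257). A difference in response between the classes was therefore not detectable by this measure.

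Whether the dominant base keeps its share was tested at the 332 members with 2 or more positions, with limma on the log2 odds of a tag lying at the summit, fitted over 6394 TCs. The share was higher in the labelled-control libraries at 2 of these 332 members and lower at 19, where 1.03% and 1.83% of all TCs tested were called. Members were selected on the pooled summit share, so these parts are a description, and no result about members is drawn from how they compare. At an unadjusted p of 0.05, limma gave 17 members higher and 60 lower. The 19 calls are close to the threshold, as the smallest adjusted p over all TCs was 0.016. They did not survive leaving out 1 library in most cases, with between 0 and 4 members higher and between 0 and 22 lower, and 0 of either when labelled-control library 1, 2 or 3 or labelled-knockdown library 2 was left out. Without labelled-knockdown library 1, 3 or 4 the lower calls were 1, 3 and 1, and without labelled-control library 4 they were 22. At an unadjusted p of 0.05, limma then still gave 13 to 15 higher and 48 to 57 lower for these 3 labelled-control libraries.

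**Figure D4:**
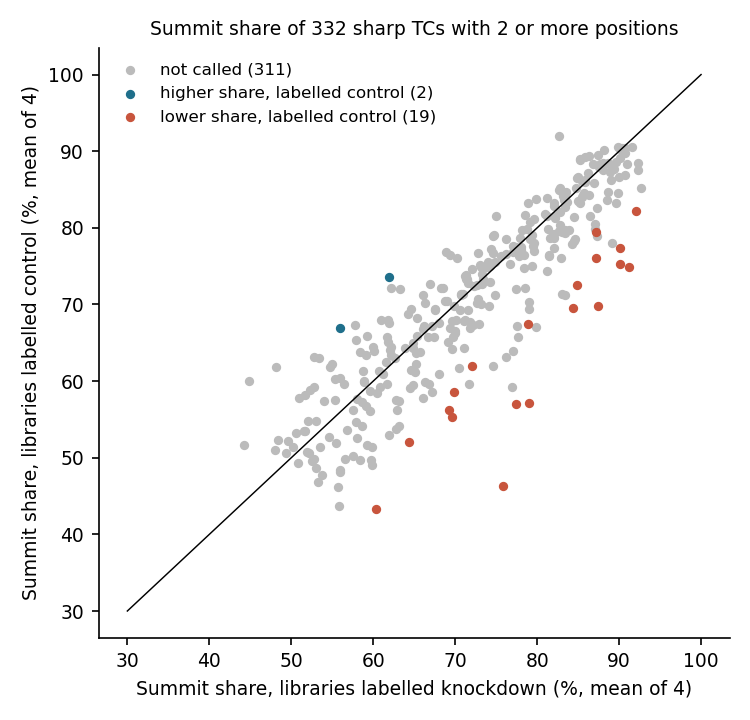
Summit share in percent of a TC's tags, mean of the 4 labelled-control libraries (vertical) against mean of the 4 labelled-knockdown libraries (horizontal), for the 332 sharp TCs with 2 or more positions. The line marks equal shares, the 2 members called higher in the labelled-control libraries are blue and the 19 called lower are red.

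The members shown are those called with the largest fall in share. At chr3R:3586756-3586760 on the plus strand the summit held 38.4%, 39.9%, 45.2% and 61.9% of the TC's tags in the labelled-control libraries and 74.7%, 77.3%, 71.3% and 80.0% in the others, and its competitor was the position 3 bp upstream. That position held 45.99%, 45.4%, 43.7% and 26.5% of the tags within 25 bp in the labelled-control libraries, and between 9.61% and 14.4% in the others. It thus exceeded the summit in labelled-control libraries 1 and 2 and in no other library. The log2 odds fell by 1.87 (SE 0.30, limma adjusted p = 0.026).

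At chr3R:19556149-19556150 on the minus strand the summit held 51.7%, 48.5%, 58.3% and 70.1% in the labelled-control libraries and 75.8%, 74.9%, 85.2% and 79.9% in the others (limma log2 odds -1.503 ± 0.31 SE, adjusted p = 0.041). At chr3R:19768819-19768820 on the minus strand it held 51.7%, 49.6%, 60.0% and 66.8% against 82.1%, 79.1%, 72.2% and 76.6% (limma log2 odds -1.38 ± 0.26 SE, adjusted p = 0.032). At both the other position was the base just upstream, and it exceeded the summit in labelled-control library 2 alone. Labelled-control library 4 lay nearest to the labelled-knockdown libraries at each of these members, and it had the highest summit share of its group at 12 of the 19.

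Both members with a higher share had their second position downstream. At chr3R:2179871-2179873 on the plus strand the summit held 74.3%, 74.7%, 76.6% and 68.8% against 63.8%, 61.2%, 63.7% and 59.0% (limma log2 odds 0.78 ± 0.16 SE, adjusted p = 0.037). At chr3R:5330384-5330387 on the plus strand it held 64.6%, 66.2%, 70.4% and 66.3% against 54.5%, 60.6%, 54.3% and 54.3% (limma log2 odds 0.67 ± 0.14 SE, adjusted p = 0.045). The groups did not overlap at either. Over all members with 2 or more positions the second position was the base just upstream at 93 of 332, and at 5 of the 19 members with a lower share.

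Across all members the median summit share per library was 87.2% ± 0.930 in the labelled-control libraries and 88.3% ± 0.800 in the others, with overlap (SD, n = 4 each, exact permutation test, p = 0.114). Thinning all libraries to the same depth gave 87.1% ± 0.908 and 88.4% ± 0.914 (SD, n = 4, exact p = 0.114). When the share was taken of all tags within 25 bp, which covers all 595 members, limma called 1 member higher and 39 lower, beside 0.786% and 2.88% of the 7510 TCs tested. These parts, too, are only a description, since members were selected on the summit share.

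Transcripts that start upstream of a promoter on the opposite strand are known exosome targets in animals, and the rule did not use that strand. Tags within 500 bp upstream of the summit on the opposite strand were therefore counted for every member. A strong TC lay in this window at 110 members (18.5%) and at 398 wide TCs (35.7%), and 23 members had no antisense tag in any library. Because a strong antisense TC is a promoter in its own right, the 485 members without one were also taken apart.

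At these 485 members, antisense tags were higher in the labelled-control libraries. The share with 1 TPM or more was 28.9%, 26.4%, 27.2% and 28.5% in these libraries and 17.3%, 16.7%, 16.1% and 15.5% in the labelled-knockdown libraries (27.7% ± 1.14 and 16.4% ± 0.799, SD, n = 4, exact permutation test, two-sided, p = 0.0286). The groups were well apart. The median level was 0.202, 0.158, 0.194 and 0.217 TPM against 0.0683, 0.0596, 0.0520 and 0.0820 TPM, a ratio of means of 2.95 (exact p = 0.0286, n = 4). These medians stand for a few tags each, and their exact values move in steps of single tags. Counting 1 member per 500 bp of a strand, so that no window was used by several members, gave 0.186 ± 0.0196 and 0.0521 ± 0.0183 TPM (SD, n = 4, exact p = 0.0286).

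**Figure D5:**
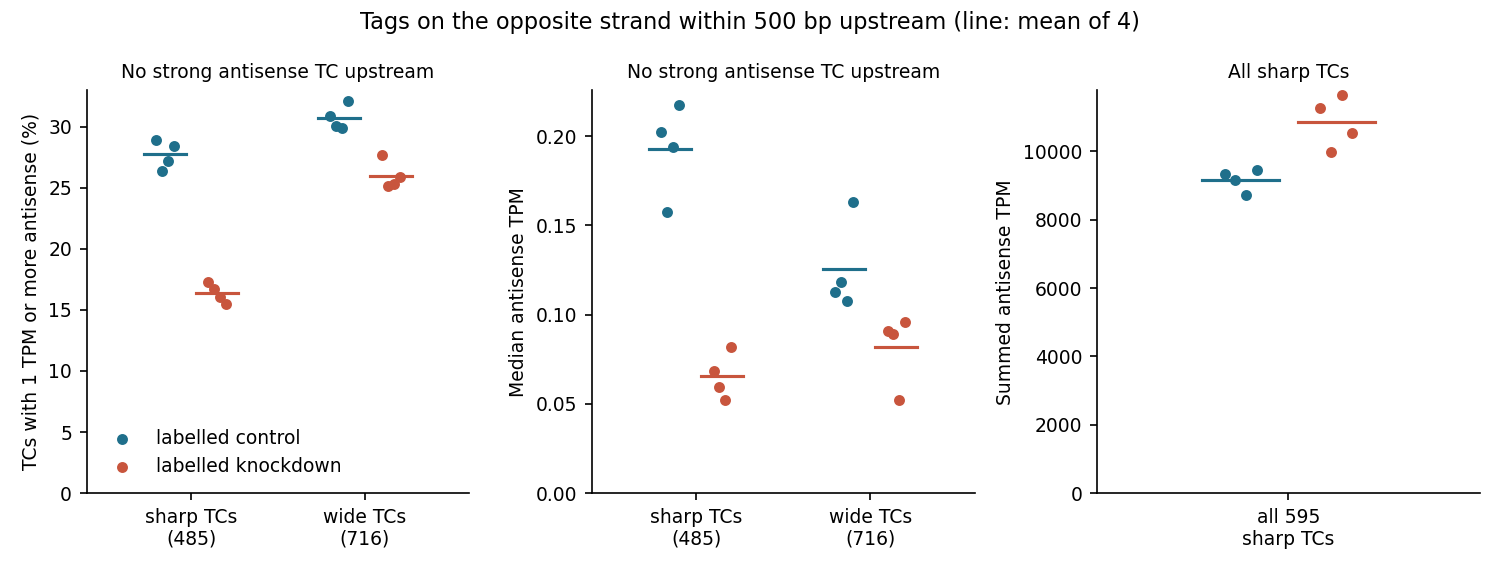
Tags on the opposite strand within 500 bp upstream of the summit in each library, as the percent of TCs with 1 TPM or more (left) and the median TPM (middle) for 485 sharp and 716 wide TCs without a strong antisense TC, and as summed TPM over all 595 sharp TCs (right), with lines at the mean of 4. Sharp TCs without a strong antisense TC had more antisense signal in the labelled-control libraries, while the sum over all sharp TCs was lower there.

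How the difference compared between sharp and wide TCs differed between measures, which did not all cover the same TCs. Of the 716 wide TCs without a strong antisense TC, 30.9%, 30.0%, 29.9% and 32.1% had 1 TPM or more in the labelled-control libraries and 27.7%, 25.1%, 25.3% and 25.8% in the others. Members therefore lay 2.99 ± 0.808 percentage points below wide TCs in the labelled-control libraries and 9.59 ± 0.940 points below them in the others (SD, n = 4 each). This difference between the classes was itself larger than the spread between libraries (exact permutation test, two-sided, p = 0.0286), also with limits of 0.5 and 2 TPM in place of 1 TPM and against wide TCs of more than 30 bp. As a share of the tags of both strands, antisense tags had a median of 1.08% ± 0.0460 at members in the labelled-control libraries and 0.359% ± 0.0297 in the others, and of 6.44% ± 0.658 and 4.68% ± 0.221 at wide TCs, strong antisense TCs included (SD, n = 4). By this measure the difference between groups was larger at wide TCs in percentage points. As a ratio of the labelled-control over the labelled-knockdown mean it was larger at members, with 3.01 against 1.38. Members minus wide TCs stood at -5.36 ± 0.634 percentage points in the labelled-control libraries and at -4.32 ± 0.199 in the others (SD, n = 4, exact permutation test, p = 0.0286). This was opposite in sign to the comparison by the share with 1 TPM or more, which left out TCs with a strong antisense TC. Against wide TCs of more than 30 bp the groups overlapped (exact p = 0.0571).

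Single windows were tested with edgeR over the 5772 windows with 10 tags or more upstream of TCs of 10 TPM or more across the genome, a test chosen after the per-library values had been seen. Of the 485 members, 113 had fewer tags and were not tested. Antisense tags were higher in the labelled-control libraries at 171 of the other 372 (45.97%) and lower at 31 (8.33%), and 170 were not called. Of all 3629 windows tested that likewise held no strong antisense TC, 38.9% and 12.8% were called, and of the 474 upstream of wide TCs of 3R 28.3% and 19.0%. With strong antisense TCs included, 186 of 482 members (38.6%) were higher and 81 (16.8%) lower, beside 31.5% and 23.1% of all windows. The filter on tags favours windows that are high in 1 group, so that these counts do not describe the 113 members left out.

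These calls were split by what the member itself did. Among members whose own level was higher in the labelled-control libraries, 73 of 105 tested windows (69.5%) were called higher and 3 lower. Where the member's own level was lower, 33 of 110 windows (30.0%) were higher and 13 lower, and where it was not called, 65 of 157 (41.4%) were higher and 15 lower. Without this split, 38.9% of all windows tested that held no strong antisense TC were called higher and 12.8% lower. The same split was not made for wide TCs or for all windows, so it is not known whether the pattern is particular to sharp TCs. The difference between these 3 lists was not tested.

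The places of antisense starts varied between members. At the 372 members, the highest antisense position lay a median of 198.5 bp upstream of the summit (quartiles of 109 and 333 bp), within 250 bp of it at 226, in a window that itself ended at 500 bp. It held a median of 21.0% of the antisense tags. A median of 26 positions had an antisense tag in the labelled-control libraries and 12 in the others, numbers that also depend on how many antisense tags each group had.

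The member with the most pronounced change of this kind among those named was chr3R:24983853 on the plus strand, a single position with 89.3% of the tags within 25 bp. Its own level was 1299.9, 1341, 1363 and 899.9 TPM in the labelled-control libraries and 319, 232, 167 and 347 TPM in the others (log2 fold change 2.19 ± 0.25 SE, edgeR adjusted p = 5.4e-05). Its antisense level was 115 ± 16.2 TPM against 1.51 ± 0.922 TPM (SD, n = 4, log2 fold change 6.22 ± 0.38 SE, edgeR adjusted p = 6.8e-08). It has a strong antisense TC by the mean over the 8 libraries, and it would not have had one in the labelled-knockdown libraries alone.

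Some members whose own level was called lower or was not called also had more antisense tags in the labelled-control libraries. At chr3R:7392770, whose level fell, antisense tags were at 0.782 ± 0.282 TPM against 0.130 ± 0.110 TPM (SD, n = 4, edgeR log2 fold change 2.56 ± 0.64 SE, adjusted p = 0.0044). At chr3R:26213577-26213580, the second strongest member, they were at 0.665 ± 0.215 against 0.107 ± 0.0654 TPM (SD, n = 4, edgeR log2 fold change 2.55 ± 0.51 SE, adjusted p = 0.00097). Not all members behaved this way. At chr3R:2912324 antisense tags were lower in the labelled-control libraries, with 3.55 ± 0.836 TPM against 8.10 ± 0.924 TPM (SD, n = 4, edgeR log2 fold change -1.22 ± 0.23 SE, adjusted p = 0.00061), and its own level fell as well. At chr3R:6675549, where the level fell most among single-position members called, a single antisense tag or none was seen per library, so that no change was detectable at this depth.

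The sum over all members, most of which came from the 110 windows with a strong antisense TC, was lower in the labelled-control libraries. It was 9346, 9161, 8732 and 9446 TPM in the labelled-control libraries and 11256, 9983, 11637 and 10539 TPM in the others, with no overlap (p = 0.0286 by the exact permutation test, n = 4). Windows of neighbouring members overlap, so that some antisense tags were counted more than once in this sum and in those below. The difference of -1682 TPM rested partly on a few members and on the far end of the window. It was -816 TPM without the 5 members with the most antisense tags (exact p = 0.0286), and -104.7 TPM with overlap in windows of 250 bp (exact p = 0.40, n = 4). Over the 485 members without a strong antisense TC it was 891, 858, 876 and 902 TPM against 689, 646, 641 and 706 TPM, again without overlap and in the opposite direction (exact p = 0.0286, n = 4).

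The most antisense tags lay upstream of members next to a strong promoter on the other strand. At chr3R:25574958-25574961 on the plus strand, itself at 41.0 ± 4.53 and 53.6 ± 5.49 TPM, the antisense level was 808 ± 151 TPM in the labelled-control libraries and 1531 ± 258 TPM in the others (SD, n = 4, edgeR log2 fold change of the antisense window -0.94 ± 0.18 SE, adjusted p = 0.00078). At chr3R:25570810-25570811 on the minus strand it was 398 ± 56.6 and 435 ± 32.3 TPM (SD, n = 4, edgeR log2 fold change -0.15 ± 0.14 SE, adjusted p = 0.38). At chr3R:19607489 on the plus strand, whose own level of 23.3 ± 3.14 and 24.8 ± 4.30 TPM was not called, the antisense level was higher in the labelled-control libraries, with 230.2 ± 31.3 against 105 ± 17.4 TPM (SD, n = 4, edgeR log2 fold change 1.11 ± 0.16 SE, adjusted p = 8.2e-05). Changes of the opposite strand of these members were thus called in both directions, and the difference between the strands was not tested.

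The remaining members of this kind had lower antisense levels in the labelled-control libraries. They were chr3R:16647904-16647906 on the plus strand, with 323 ± 33.6 against 464 ± 56.5 TPM, and chr3R:19784102-19784105 on the minus strand, with 260.0 ± 5.44 against 351 ± 24.5 TPM (SD, n = 4, edgeR adjusted p = 0.0058 and 0.011). The first is itself among the strong members, and its own level ranged from 435 to 1454 TPM in the labelled-control libraries and from 1417 to 4147 TPM in the others, with an overlap (edgeR log2 fold change -1.59 ± 0.45 SE, adjusted p = 0.013).

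Members faced each other head to head, with summits within 500 bp, in 14 pairs. Some of these pairs share their minus strand member and differ only in which neighbouring plus strand member is counted, so they are not all separate places. Such pairs were not counted for wide TCs. The pair with the highest level of its weaker partner was formed by 2 single-position TCs 148 bp apart, chr3R:10962724 on the minus and chr3R:10962872 on the plus strand. The minus strand TC had 26.02, 36.4, 28.1 and 45.5 TPM in the labelled-control libraries and 172, 179, 173 and 124 TPM in the others, a fall of 2.28 on the log2 scale (SE 0.23, edgeR adjusted p = 2.8e-05). Its partner had 217, 195, 153 and 119 TPM against 367, 188, 325 and 138 TPM, with overlap (edgeR log2 fold change -0.59 ± 0.31 SE, adjusted p = 0.135). Without labelled-knockdown library 4 the partner passed the test as well (log2 fold change -0.80, edgeR adjusted p = 0.027, beside up to 0.361 without other libraries). A test of the difference between partners was not made.

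In the other pairs named by rule, members of a pair lay between 349 and 415 bp apart. One of these pairs, chr3R:11068506-11068508 on the minus and chr3R:11068879-11068881 on the plus strand, lies just downstream of the strongest member, and neither partner passed the test (edgeR log2 fold change -0.12 ± 0.37 and 0.24 ± 0.20 SE, adjusted p = 0.81 and 0.32). The only member of these pairs that passed was chr3R:23079195-23079204 on the plus strand, with 31.4, 30.4, 27.4 and 21.8 TPM against 47.3, 42.7, 64.6 and 55.2 TPM (edgeR log2 fold change -0.94 ± 0.17 SE, adjusted p = 0.0012). Its partner at chr3R:23078844-23078849 on the minus strand had 23.4 ± 1.37 and 24.5 ± 5.44 TPM (SD, n = 4).

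Downstream of the summit, tags on the same strand more than 100 bp and up to 1000 bp away, outside other strong TCs, summed to 5852 ± 639 TPM in the labelled-control libraries and 6038 ± 268 TPM in the others over all members (SD, n = 4 each). The groups overlapped (exact permutation test, two-sided, p = 0.714), so no difference was detectable on the sense strand beyond the promoter.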

How the data were processed

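Of the CAGE libraries of S2 cells, 4 carry the label control and 4 exosome knockdown. Each deposited file holds raw counts of CAGE tags by the base (dm3) and strand where they begin, which the authors made by trimming reads, filtering them on quality and keeping unique Bowtie 1.1.1 mappings, with no normalization. Removal of duplicates is not stated, so tags are not independent molecules, and spread over libraries rather than counting error was used. TPM are scaled to all tags of a library (33565925 to 46388382).

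TCs were fitted with edgeR 4.0.16 (quasi-likelihood, TMM factors of 0.901 to 1.05, R 4.3.3) from a mean of 1 TPM on, with Benjamini-Hochberg adjustment at 0.05, and with DESeq2 1.42.0 as an alternative. Summit shares were tested with limma 3.58.1 on log2 odds with 0.5 tags added, for TCs of 10 TPM or more with 2 or more positions. Upstream antisense windows used edgeR with the same factors. The SE given with an edgeR log2 fold change is its size divided by the square root of the F statistic of the test. Values per library were compared by exact permutation tests, two-sided. Log2 TPM used 0.1 TPM added. On simulated data, edgeR found 200 of 200 TCs changed 4-fold with 15 false calls over 23325 TCs, limma found 199 of 200 with 11 false calls over 6394, and clustering returned 150 of 150 planted TCs. The edgeR and limma simulations set the same spread between libraries for every TC, and their planted changes were larger than most changes called at members. They check the code and do not give the power of the tests on these data. Other steps used numpy 2.4.6, pandas 2.3.3, matplotlib 3.10.9 and scipy 1.17.1 under Python 3.11.15.

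Members and lists were chosen with earlier results of these data known. The rule for named TCs takes the 5 members with the highest level, the 5 with the highest summit share (263 tied at 100%, of which the strongest were taken), the 5 with the largest and smallest log2 fold change among called members without overlap, up to 3 with the largest change of summit share in each direction, the 5 with most upstream antisense tags in the labelled-control libraries, and the 5 head-to-head pairs whose weaker partner is strongest. No 2 libraries were copies (chi-square per degree of freedom of 80.6 or more between libraries of a group). Libraries were pooled 4 to a sequencing lane, and the pool of each is not given in the sources used here, so that pool and group cannot be told apart. Gene names and bases at the summit were not analysed here, since the annotation at hand is on another build.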

Additional observations from a re-analysis of the deposited data

Results flagged for a closer look

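In 6 of the 92 groups of 4 libraries checked, 1 library stood apart from the other 3 by more than the limit of Dixon's test at 95%, which chance exceeds in about 1 in 20 groups, so the number is near what chance gives. At chr3R:4646397-4646399 (minus strand), labelled-control library 3 was lowest with 1445 TPM, the others being at 1798 to 1843 TPM. At chr3R:26034659-26034665 (minus strand), labelled-knockdown library 2 was highest with 4821 TPM, the others being at 1945 to 2187 TPM. At chr3R:24983853 (plus strand), labelled-control library 4 was lowest with 899.9 TPM, the others being at 1299.9 to 1363 TPM. At chr3R:4882915 (minus strand), labelled-knockdown library 1 was highest with 2.25 TPM, the others being at 0.676 to 0.820 TPM. At chr3R:10962724 (minus strand), labelled-knockdown library 4 was lowest with 123.9 TPM, the others being at 172 to 179 TPM. At chr3R:11068879-11068881 (plus strand), labelled-knockdown library 4 was highest with 95.8 TPM, the others being at 51.5 to 54.4 TPM, and without it the change there passed the test of edgeR (log2 fold change 0.48, adjusted p = 0.015, beside 0.185 to 0.551 under the other alternatives). No library stood apart at all of these members.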

How the results depend on the processing

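The number of members rose to 894 when positions were merged within 10 bp, 593 of them shared with the main setting. Under the other definitions it was 432 to 607. Calls of level stayed within 1.5 times, with 133 to 153 members higher and 167 to 193 lower over the alternatives with all libraries, and 131 to 155 and 152 to 181 when a library was left out. With the replicate block, 153 were higher and 189 lower, of which 143 and 172 were shared. Libraries of the same number deviated together with r of 0.0588 to 0.452 over 7510 TCs, and those of different numbers with r of -0.506 to 0.317. Only 1 of 4 was matched best by its own number. With so few pairs and ranges that overlap, this comparison cannot decide whether libraries of the same number were paired. Calls of summit share were not stable. Higher and lower calls went from 2 and 19 to 0 and 0 with the replicate block, to 1 and 39 within 25 bp, to 1 higher with TCs of 5 TPM or more, and to 0 to 4 and 0 to 22 when a library was left out. The share of library tags differed by -1.08 percentage points of 3R tags (exact p = 0.40) and -0.341 without the 10 strongest members (exact p = 0.143). Summed antisense TPM differed by -104.7 in windows of 250 bp (exact p = 0.40), and by 211 in the opposite direction without strong antisense TCs. The antisense share of members minus wide TCs differed by -1.01 against wide TCs of more than 30 bp (exact p = 0.0571). Downstream tags differed by 48.0 TPM up to 500 bp away, opposite to -186 up to 1000 bp. Log2 fold changes near 0 changed sign when a library was left out at the members with summits at 11068507 (-0.36 to 0.16), 23078849 (-0.19 to 0.034) and 4502682 (-0.087 to 0.00088, and 0.0032 with no filter). The cause was not tested in these cases. Leaving out a library leaves 3 against 4, where the smallest exact p is 0.0571, so single values have no test there. Alternatives for antisense windows, the 25 bp share and the strongest members were chosen after seeing the data.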
